A study of Mus musculus with 10 samples.

Results

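The genes described here are 36 genes of the axoneme, the microtubule core of motile cilia, and of its transcriptional control, out of 48974 genes with a count table. They comprised 3 transcription factors, 10 outer and inner arm dynein heavy chains, 4 intermediate chains, 2 light chains, 3 docking and assembly factors, 2 ruler proteins, 3 radial spoke proteins, 4 central pair proteins, 3 tektins and the SAXO family genes Saxo2 and Ppp1r32. Ppp1r32, Wdr63, Wdr78 and Saxo2 were chosen on their measured values in these libraries, so their differences are given as descriptions only. The other 32 were listed for their known function, and the question put to them was whether the near absence of Ppp1r32 and Wdr63 counts in mutant cells was shared by other parts of the axoneme.

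RNA was sequenced from YFP-positive cells sorted from spinal cords of mouse embryos at e10.5, in 5 control and 5 cdKO samples. All carried Olig2-Cre and the Rosa26R-YFP reporter, each on 1 allele, so that recombination and YFP followed the Olig2 domain that generates motor neurons. The paper also detected YFP in cells ventral to the motor neurons, likely V3 interneurons, so the sorted cells were a mixture. For both Oc1 and Oc2, 1 allele was floxed in all samples, and the second allele was wild type in controls and null in cdKO embryos. How many embryos made up a sample was not given in the sources used here, so the p-values measure the spread between these samples.

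Onecut factors are transcription factors of differentiating motor neurons. The axoneme of a motile cilium is built of microtubule doublets that carry dynein arms, radial spokes and regularly spaced ruler proteins around a central pair, and Foxj1 together with the RFX factors drives its genes in multiciliated and nodal cells. Developing neural progenitors and young neurons bear instead a primary cilium, which is non-motile and lacks most of these parts, while the nearby floor plate expresses Foxj1.

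The 250 bases before the RefSeq start (build GRCm38.p6) were available for 29 of the 36 genes, and not for Foxj1, Dnah3, Wdr78, Armc4, Rsph1, Rsph4a and Saxo2. The windows of Ppp1r32 (chr19:10482929-10483178, minus strand) and Wdr63 (chr3:146108037-146108286, minus strand) are shown because these were the genes whose counts were lost, with an inverted repeat, GTTGCNNNGCAAC, in capitals.

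Ppp1r32: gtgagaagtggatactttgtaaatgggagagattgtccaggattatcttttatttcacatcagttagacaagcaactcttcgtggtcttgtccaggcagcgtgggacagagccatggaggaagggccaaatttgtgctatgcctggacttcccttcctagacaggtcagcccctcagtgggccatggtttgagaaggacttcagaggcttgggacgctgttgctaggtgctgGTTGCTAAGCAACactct
Wdr63: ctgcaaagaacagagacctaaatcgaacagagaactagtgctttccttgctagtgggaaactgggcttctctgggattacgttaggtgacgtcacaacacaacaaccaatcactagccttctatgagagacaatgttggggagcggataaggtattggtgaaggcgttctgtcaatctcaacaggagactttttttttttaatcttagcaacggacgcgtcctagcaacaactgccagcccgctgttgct

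The repeat ended 5 bases before the start of Ppp1r32 and did not occur in the Wdr63 window. It was chosen after the Ppp1r32 window had been seen, so Ppp1r32 is among the genes that hold it by construction. It occurred in 5 of the 29 genes (17.2%), Ppp1r32, Dnaic2, Dnah6, Tekt2 and Tekt4, against 0.233% of all 27025 genes. The X-box, the paired site bound by RFX factors, was searched on both strands and was also held by 5 of the 29 (17.2%), against 1.49% of all genes. The stretches around these 5 sites are shown with the X-box in capitals, for comparison with the Ppp1r32 repeat. Their positions are for Dnaic1 chr4:41569763-41569793 (plus strand), for Dnaic2 chr11:114727374-114727410 (plus strand), for Hydin chr8:110266944-110266976 (plus strand), for Spag16 chr1:69826855-69826892 (plus strand), for Tekt2 chr4:126325693-126325729 (minus strand).

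Dnaic1: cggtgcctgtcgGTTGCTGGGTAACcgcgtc
Dnaic2: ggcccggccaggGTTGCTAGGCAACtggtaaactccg
Hydin: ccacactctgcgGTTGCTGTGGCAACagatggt
Spag16: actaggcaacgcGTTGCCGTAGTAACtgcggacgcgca
Tekt2: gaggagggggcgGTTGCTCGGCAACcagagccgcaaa

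In Dnaic2 and Tekt2 the X-box and the inverted repeat were the same bases. Single RFX half-sites (GTTGCC on either strand, which overlap the X-box) occurred in 8 of the 29 genes (27.6%), against 11.8% of all genes. In the forms searched, neither Ppp1r32 nor Wdr63 held an X-box or the half-site. The form GTTGCT, with which most of the X-boxes above begin, was not counted as a half-site, and both windows hold it. The Ppp1r32 repeat closely resembles the X-boxes of Dnaic2 and Tekt2 shown above, and whether RFX factors bind it was not tested. The forkhead core GTAAACA (3.54% of all genes) and the Onecut core ATTGAT (7.72%) occurred in 0 of the 29 windows, searched on both strands. Only these exact letters were searched, so variants of either core may be present.

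In GENCODE M21 (GRCm38), the other genes given in full lie as follows, Wdr78 at chr4:103038065-103114555, Saxo2 at chr7:82632960-82648528, Foxj1 at chr11:116330704-116335399, Rfx2 at chr17:56775897-56831013, Rfx3 at chr19:27761721-28011166, Rsph9 at chr17:46122035-46144216, Rsph1 at chr17:31255019-31277383, Ccdc40 at chr11:119228572-119265238, Dnaic2 at chr11:114727408-114757889 and Tekt1 at chr11:72344722-72362442. Values are sums over their annotated exons.

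Counts summed over exon bins totalled 63932395 to 107709534 per control sample and 72315782 to 84249157 per cdKO sample. cdKO replicate 5 stood apart, with counts on 198569 bins against 243970 to 271591 in the other samples, 0.804% mitochondrial counts against at most 0.242%, and a shift of counts toward the 3′ end of genes. The labels were checked on Oc1, which was targeted, and on Oc3, which was not targeted but whose expression the paper reports as lost in these mutants. Oc2, also targeted, was not used for this check. The paper describes truncated Oc2 transcripts that remain in mutant tissue. The first bin of Oc1 held 63 to 210 counts in controls and 0 to 17 in cdKO samples, and Oc3 held 29 to 68 and 0 to 3 counts. Over 17838 genes that passed the count filter, edgeR's quasi-likelihood test called 0 (0%) at an adjusted p of 0.05, while 146 (0.818%) were lower and 745 (4.18%) higher at an unadjusted p of 0.05. Without cdKO replicate 5 the balance turned, with 319 of 18159 genes lower (1.76%) and 109 higher (0.6%), and with library size as the only scaling it was 252 lower and 381 higher. DESeq2's Wald test called 19 of 29537 genes with an adjusted p (0.0643%). The summed level of 9 motor neuron markers was 539 to 779 CPM (counts scaled to the TMM-adjusted library size) in controls and 404 to 921 CPM in cdKO samples. The median log2 fold change of these 9 was 0.022. At an unadjusted p of 0.05, 0 were higher and 1 was lower, against 4.18% and 0.818% of all genes. The lower marker was Isl1, from 225 ± 80.5 to 127 ± 32.9 CPM (SD, n = 5 each, edgeR adjusted p = 0.939). Of other cell types, the 3 markers of V3 interneurons and their progenitors summed to 21.3 to 99.7 CPM in controls and 18.5 to 38.6 CPM in cdKO samples. The highest of these sums was in control replicate 5. The 8 erythroid markers summed to 0.901 to 19.0 CPM in controls and 2.82 to 66.2 CPM in cdKO samples, the highest in cdKO replicate 5. The 8 mesenchyme markers summed to 16.8 to 118 and 29.1 to 135 CPM. Their part in the results was not tested.

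Ppp1r32, a protein that shares the microtubule-binding repeats of the SAXO family, was read in every control and in no cdKO sample. Its counts in control replicates 1 to 5 were 14, 16, 12, 23 and 17, and in the 5 cdKO samples 0, 0, 0, 0 and 0. In CPM the control level was 0.199 ± 0.079 (SD, n = 5). No fold is given, because neighbouring bins count the same reads. The groups did not overlap, but the counts were few in controls too. The largest count on a single bin was 4, 2, 3, 5 and 3 in the controls. The 82 control counts were spread over 13 of the gene's 14 bins (chromosome 19, 10474235 to 10482928, minus strand). A read pair is counted on each bin it overlaps, and the number of read pairs behind these counts is therefore smaller, down to a few per control sample. In these bulk samples, fewer cells of a type and less RNA per cell cannot be told apart.

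Wdr63, an intermediate chain of inner arm dynein, followed the same pattern. Its counts were 22, 16, 18, 31 and 10 in controls and 0, 0, 0, 2 and 0 in cdKO samples. Every control lay above every cdKO sample. The control level was 0.229 ± 0.111 CPM (SD, n = 5) and the cdKO level 0.00477 CPM. The depth-adjusted ratio of cdKO to control was 2.36%. Its exact 95% interval for counting error was 0.282% to 8.75%. This interval pools the samples of each group and so leaves out the spread between samples. It also takes each count as a separate read, and it is too narrow for both reasons. The 97 control counts covered 23 of 27 bins (chromosome 3, 146040526 to 146108130, minus strand), and the 2 counts of cdKO replicate 4 fell on the last bins at the 3′ end, of 314 and 2 bases, which touch and may hold the same read pair. None of the bins of either gene was shared with another annotated gene.

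**Figure D1:**
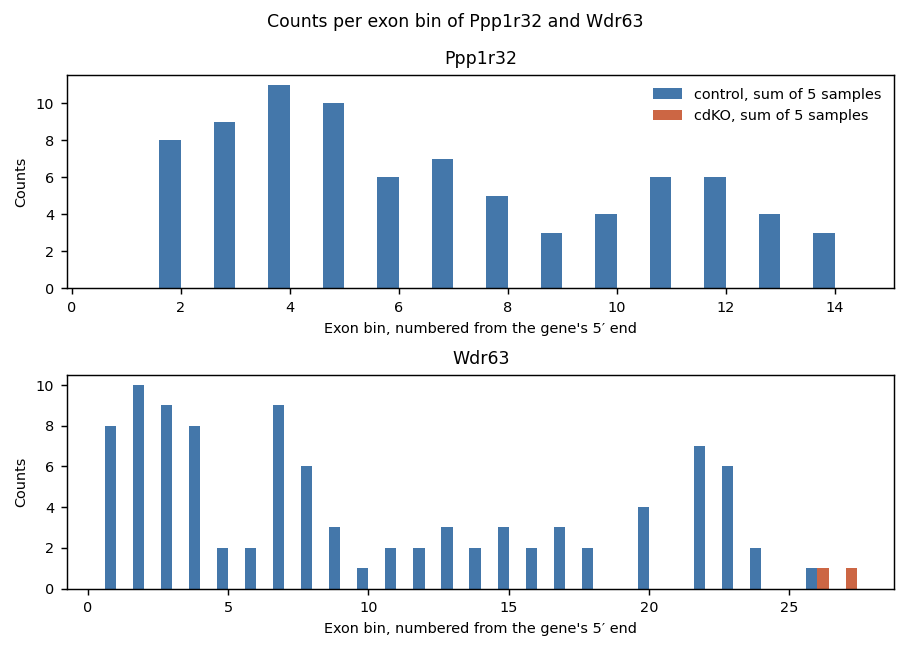
Counts on each exon bin of Ppp1r32 and Wdr63, numbered from the 5′ end, summed over the 5 control (blue) and the 5 cdKO samples (orange). Control counts lie along both genes, and the cdKO samples have 0 counts on Ppp1r32 and 2 on the last bins of Wdr63.

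The shares of the whole table that follow are descriptions, since this pattern put both genes on the list. Ppp1r32 was the single gene of 17838 tested (0.00561%) with 0 counts in all cdKO samples and counts in all controls. A gene with 0 counts in all cdKO samples passed the count filter only through its controls, so genes with fewer control counts were not searched. The limits were then set at the values of Wdr63 itself, at most 2 counts over all cdKO samples and at least 10 in each control. Wdr63 thus qualified by construction, and the only other gene was Ppp1r32 (2 genes, 0.0112%). In the opposite direction, at most 2 counts over all controls and at least 10 in each cdKO sample, the number was 0 (0%).

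Wdr78, the other intermediate chain of the same inner arm, kept its counts. Its levels were 5.08, 1.60, 3.55, 4.49 and 5.94 CPM in controls and 2.68, 4.53, 1.94, 4.17 and 2.87 CPM in cdKO samples. The groups overlapped over most of their range, with means of 4.13 ± 1.66 and 3.24 ± 1.08 CPM (SD, n = 5 each) and a fitted log2 fold change of -0.35 (SE 0.40). In cdKO replicate 5 its 132 counts on the first 8 of 27 bins and 14 on the last 6 flanked 13 middle bins with 0, whereas these middle bins held 46 to 160 counts in the other cdKO samples and 50 to 166 in controls.

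Saxo2, a relative of Ppp1r32 in the SAXO family, had its highest values in cdKO samples. Its counts were 73, 58, 53, 30 and 56 in controls and 110, 47, 104, 48 and 406 in cdKO samples. In CPM, cdKO replicates 1, 3 and 5 (1.40, 1.28 and 7.99) lay above the highest control (0.827), cdKO replicate 5 by far the most, and the other cdKO samples lay within the controls. The log2 fold change of 1.91 (SE 0.70) became 0.61 without that library. Of all counts, 99.2% lay on the first 4 of 11 bins (chr7:82646168-82648528), and the other 7 bins together held 8 counts in 10 samples. The values given for Saxo2 thus describe the 5′ end of its annotation.

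**Figure D2:**
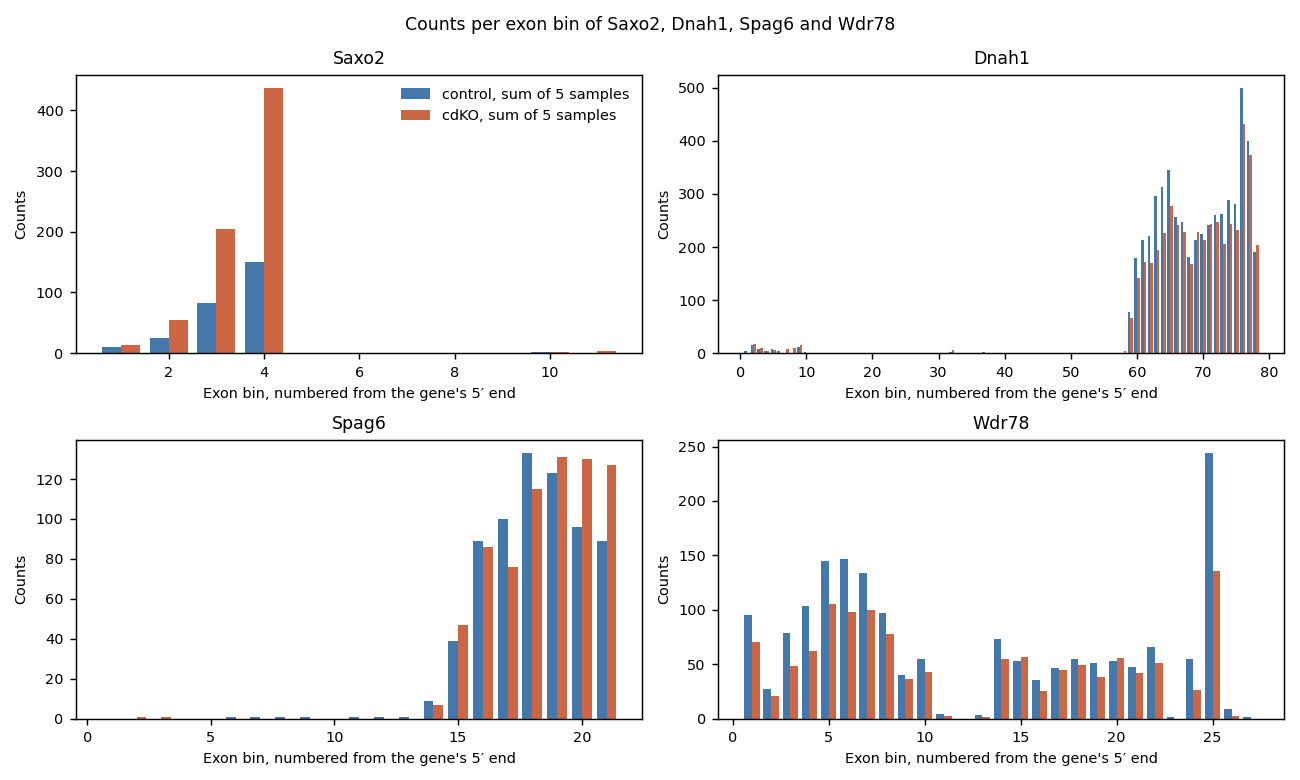
Counts on each exon bin of Saxo2, Dnah1, Spag6 and Wdr78, numbered from the 5′ end, summed over the 5 control (blue) and the 5 cdKO samples (orange). Saxo2 has counts on its first 4 bins, Dnah1 on its last 20 of 78 and Spag6 on its last 8 of 21, in both groups, whereas Wdr78 is covered along most of its length.

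Of the 32 genes listed for function, 26 passed the filter. None was lower and none higher in cdKO at an unadjusted p of 0.05 in edgeR's quasi-likelihood test (0 of 26 in each direction, against 0.818% and 4.18% of all genes), and 0 passed the adjusted threshold. DESeq2 called 0 of 31 with an adjusted p. In its Wald test 1, Tekt4, was higher at an unadjusted p of 0.05, against 956 of all 30166 genes. The median log2 fold change of the 26 genes was 0.03, with 12 below and 14 above 0, beside -0.018 for all genes tested. The fold changes ran from -0.60 (Rfx3) to 1.07 (Tekt4), and 22 were within 0.5 of 0. Approximate 95% intervals of the 26 genes were taken from a normal distribution. Over all bins, each stayed above a log2 fold change of -2 (the lowest bound was -1.81, for Hydin). Those of 16 genes stayed above -1. With so few samples such intervals are narrower than the quasi-likelihood test would give. Bounds close to -2 or -1 may therefore lie below these limits, and the count of 16 may be too high. For Spag17, Dnali1 and Dnah11 most counts lay on bins that another gene also covers, so a loss of these genes themselves is not bounded. On bins of its own Dnah11 was at -0.87 (SE 0.92), and Spag17, Dnali1 and Hydin failed the filter there. Hydin had 17.9% of its counts on shared bins. Its own bins held 9, 0, 3, 15 and 10 counts in controls and 0, 15, 1, 11 and 0 in cdKO samples, so its loss is not bounded either. For no gene of the 26 did the groups separate, while 40 genes of the whole table did so downward (0.224%) and 32 upward (0.179%).

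**Figure D3:**
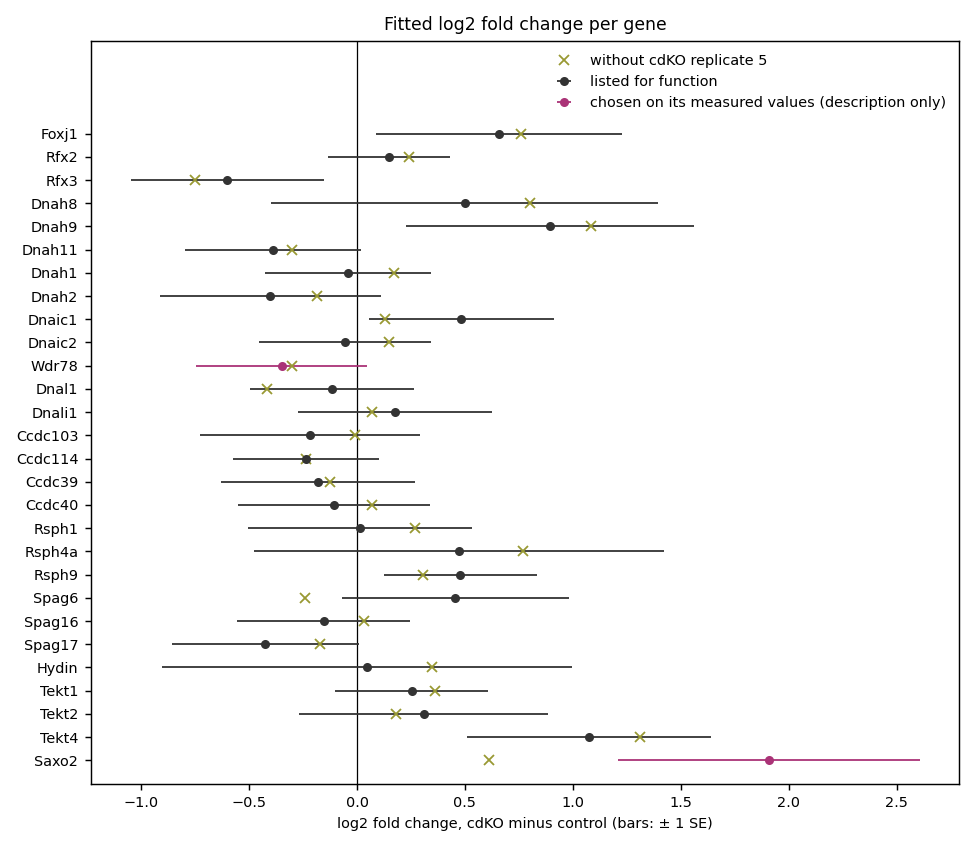
Fitted log2 fold change (cdKO minus control, bars 1 SE) of the 28 genes that passed the filter other than Ppp1r32 and Wdr63. Black points are genes listed for function, purple points Wdr78 and Saxo2, and crosses the value without cdKO replicate 5. The black points lie from -0.60 to 1.07 on both sides of 0, and the cross of Saxo2 lies at 0.61 against 1.91 with all samples.

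The transcription factors of the motile cilium were all read. Foxj1, the forkhead factor that switches on the motile cilium program, was low, at 104, 75, 18, 37 and 8 counts in controls and 99, 61, 75, 54 and 28 in cdKO samples. Controls spanned a wider range than cdKO samples and overlapped them, and the log2 fold change was 0.66 (SE 0.57, edgeR adjusted p = 0.997). The 10 floor plate markers, whose cells express Foxj1, had a summed level of 136 to 572 CPM in controls and 184 to 495 CPM in cdKO samples. The part of such cells in the values given here was not tested. Rfx2, which acts with Foxj1, was at 5.04, 6.78, 4.75, 6.74 and 5.07 CPM in controls and 6.82, 5.54, 7.31, 7.07 and 4.71 CPM in cdKO samples. It was the steadiest of the 26, with a log2 fold change of 0.15 and an SE of 0.28. Rfx3, needed for both primary and motile cilia, was at 13.8, 3.81, 15.9, 20.5 and 21.8 CPM in controls and 3.99, 11.9, 8.71, 11.3 and 14.2 CPM in cdKO samples. Control replicate 2 was the lowest of all 10 samples and the other 4 controls were high. The log2 fold change was -0.60 (SE 0.45, edgeR adjusted p = 0.997). Without control replicate 2 it was -0.85. Rfx3 was then the 1 gene of the list lower at an unadjusted p of 0.05, against 358 of all 18208 genes tested.

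The other genes with the highest level per length were parts of the spokes, ruler, outer arm and doublets. Rsph9, a radial spoke head protein, led all 36 genes at 11.7 CPM per kb of exon bins. Its levels were 19.3, 21.6, 13.2, 11.2 and 13.1 CPM in controls and 31.6, 10.3, 19.7, 16.0 and 31.9 CPM in cdKO samples. Both the lowest and the highest values were from cdKO samples, and the log2 fold change was 0.48 (SE 0.35). Rsph1, another spoke head protein (3.59 CPM per kb), was at 6.43, 4.02, 5.77, 3.16 and 1.45 CPM in controls and 5.28, 3.34, 6.78, 4.78 and 0.827 CPM in cdKO samples. The last replicate of each group was its lowest, and the means, 4.17 ± 2.01 and 4.20 ± 2.25 CPM (SD, n = 5 each), were close. The third spoke gene, Rsph4a, held 0 to 23 counts in controls and 0 to 17 in cdKO samples.

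Ccdc40, which with Ccdc39 forms the ruler that spaces dyneins and spokes along the doublet, reached 2.82 CPM per kb. It was at 22.4, 20.7, 19.5, 21.6 and 3.87 CPM in controls and 13.4, 16.1, 21.9, 23.2 and 7.36 CPM in cdKO samples. Control replicate 5 was far below the other controls, below every cdKO sample as well, and the log2 fold change was -0.11 (SE 0.44). Ccdc39 had a log2 fold change of -0.18 (SE 0.45). Its sum included 11.2% of counts on bins shared with Ttc14.

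Dnaic2, an outer arm intermediate chain (2.38 CPM per kb), was at 15.5, 13.6, 10.97, 10.1 and 5.29 CPM in controls and 18.3, 10.3, 8.92, 11.7 and 4.17 CPM in cdKO samples. The groups overlapped over most of their range, and the log2 fold change was -0.055 (SE 0.40). Tekt1, a filament protein inside the doublet (2.07 CPM per kb), was at 3.35, 3.44, 2.77, 3.15 and 2.60 CPM in controls and 3.71, 3.96, 6.09, 1.98 and 2.5 CPM in cdKO samples. The controls were tightly grouped inside the wider range of the cdKO samples, with a log2 fold change of 0.25 (SE 0.35). Tekt2, with 25.5% of its counts on bins shared with Gm12945, held 8 to 132 counts in controls and 39 to 96 in cdKO samples (log2 fold change 0.31, SE 0.58). A further tektin, Tekt4, had the smallest p of the 26 genes and is named after its values were seen. It held 29, 15, 21, 10 and 21 counts in controls and 73, 43, 41, 23 and 7 in cdKO samples. In CPM the first 3 cdKO samples lay above all controls, and cdKO replicate 5 lay beside the lowest control. The log2 fold change was 1.07 (SE 0.56, edgeR adjusted p = 0.939), and 1.31 without cdKO replicate 5, where it was the 1 gene of the list higher at an unadjusted p of 0.05, against 0.6% of all genes.

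**Figure D4:**
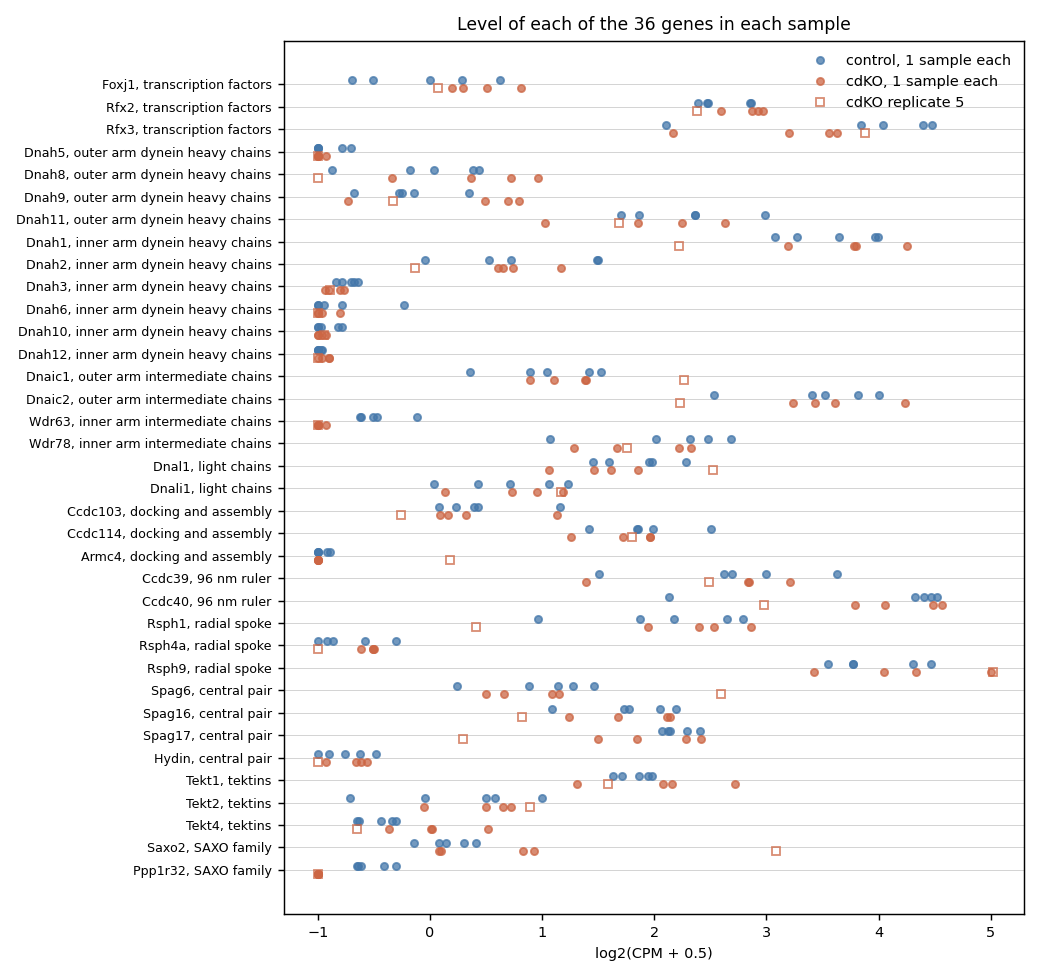
Level of each of the 36 genes in each sample as log2(CPM + 0.5), control samples blue and cdKO samples orange, with cdKO replicate 5 as open squares. The points of the 2 groups separate for Ppp1r32 and Wdr63, and overlap for the others. Values at -1 are 0 counts.

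Dynein heavy chains, the motors of the arms, were mostly near the detection limit. Of the 10, Dnah1, Dnah2, Dnah8, Dnah9 and Dnah11 passed the filter, with log2 fold changes from -0.40 (Dnah2) to 0.90 (Dnah9). Dnah9 held 77, 42, 11, 25 and 22 counts in controls and 8, 104, 91, 76 and 15 in cdKO samples, so that 2 cdKO samples exceeded all controls in counts and, scaled to CPM, replicate 4 did as well. Dnah8 held 3 to 85 counts in controls and 0 to 118 in cdKO samples, and Dnah2 held 49 to 170 and 21 to 147. The counts of Dnah5, Dnah3, Dnah6, Dnah10 and Dnah12 were too low. Dnah5, an outer arm heavy chain, held 0, 12, 0, 6 and 0 counts in controls and 0, 0, 0, 2 and 0 in cdKO samples. Of its 18 control counts all came from 2 samples, so 3 controls were at 0 like most cdKO samples. Dnah6 held 39 counts in controls, 31 of them in replicate 3, and 7 in cdKO samples, and Dnah10 held 14 and 4. Dnah3 held 14, 13, 10, 6 and 4 counts in controls and 7, 2, 6, 3 and 2 in cdKO samples, with 71.6% of them on bins shared with Lyrm1. Dnah12 was reversed, with 2 control and 7 cdKO counts. Sums were thus lower in cdKO for 4 of these 5 genes, but their groups overlapped, and in DESeq2's Wald test, which had no count filter, their unadjusted p lay between 0.178 and 0.410. On the bins of Dnah3 alone the counts were 8, 0, 4, 0 and 4 in controls and 0, 0, 0, 2 and 1 in cdKO samples. On bins of their own, all 5 genes had 2 or more controls at 0, and a loss was not detectable at this depth.

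Dnah1, the inner arm heavy chain with the most counts, was read on part of its length only. Of its counts, 98.4% lay on the last 20 of 78 bins (chr14:31260375-31269501), with 523 to 1579 counts per control sample and 190 to 1430 per cdKO sample. The first 58 bins held 3 to 29 and 4 to 34. Its level of 11.9 ± 3.4 CPM in controls and 11.6 ± 5.5 CPM in cdKO samples (SD, n = 5 each) is therefore that of its 3′ end. Spag6, a central pair protein, had 99.4% of its counts on the last 8 of 21 bins, 33.4% of its counts lay on bins shared with Gm20539, and its near-identical copy Spag6l may share reads, so its log2 fold change of 0.46 is uncertain. Without cdKO replicate 5 it was -0.24. These gene parts were delimited after the counts had been seen.

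Several sums lay largely on bins of another gene, and since strand was not used in counting, the reads of the overlapping genes cannot be told apart. Counts on bins that another annotated gene also covers made up 98.8% of Spag17, a central pair protein that overlaps Wdr3, and 93.1% of the light chain gene Dnali1, which overlaps Gnl2. They made up 90.2% of the outer arm heavy chain Dnah11, where the other gene was Cdca7l, and 44.3% of the intermediate chain Dnaic1, where it was Enho. Dnaic1 had a log2 fold change of 0.48, and 0.13 without cdKO replicate 5. In all, 4 genes had over 50% and 11 over 10% of their counts on such bins. On bins of a single gene, 23 of the 32 genes passed the filter, and again 0 were lower and 0 higher at an unadjusted p of 0.05, against 0.852% and 4.26% of 16086 genes. Their median log2 fold change was 0.015, against -0.017 for all genes. The range was -0.87 (Dnah11, whose value over all bins was -0.39) to 1.08 (Tekt4).

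**Figure D5:**
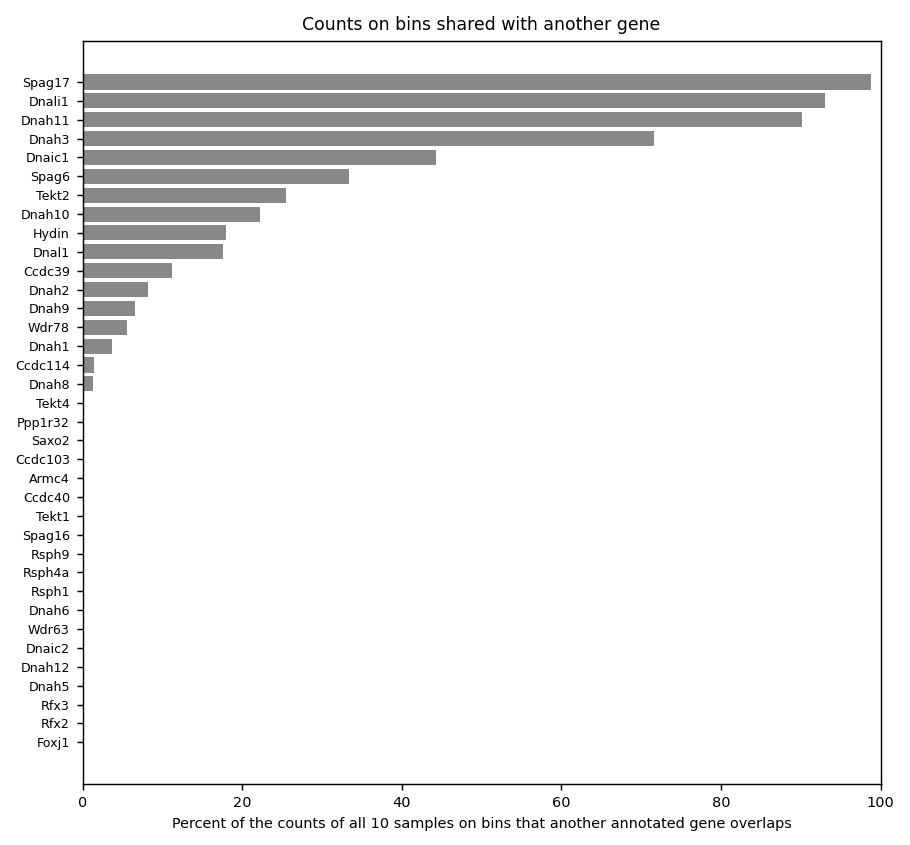
Percent of each gene's counts, over all 10 samples, that lie on bins overlapped by another annotated gene. Spag17, Dnali1, Dnah11 and Dnah3 exceed 50%, and Ppp1r32, Wdr63 and Saxo2 are at 0%.

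For the remaining genes tested, log2 fold changes over all bins lay between -0.42 and 0.18. Those of Dnali1 and Spag17 rest mostly on shared bins, and that of Hydin had an SE of 0.95. The light chain Dnal1 and Dnali1 had log2 fold changes of -0.12 and 0.18, the assembly factor Ccdc103 and the docking protein Ccdc114 of -0.22 and -0.24, and the central pair proteins Spag16, Spag17 and Hydin of -0.15, -0.42 and 0.046. Hydin held at most 16 counts in a sample. Armc4, another docking protein, held 38 counts in all samples together, of which 32 came from cdKO replicate 5 and lay on its last bin. Of the 26 genes tested, 9 had their lowest CPM in cdKO replicate 5 and 8 their highest in control replicate 5.

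The other lists of genes were read from the same fit. Of 78 other motile cilium genes found, 57 were tested, with a median log2 fold change of -0.003. At an unadjusted p of 0.05, 1 was lower and 1 higher, against 0.818% and 4.18% of all genes. The lower gene was Cfap52, a protein inside the doublet, at 0.441, 0.546, 0.307, 0.230 and 0.679 CPM in controls and 0.190, 0, 0.246, 0.143 and 0.0591 CPM in cdKO samples. Its groups overlapped only between 0.230 and 0.246 CPM, and the log2 fold change was -1.77 (SE 0.76, edgeR adjusted p = 0.939), or -1.59 without cdKO replicate 5. The higher gene was Nme5, a radial spoke protein, with a log2 fold change of 0.93 that became 0.47 without cdKO replicate 5.

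Primary cilium and transport genes, all 52 tested, gave 0 lower and 0 higher with a median of -0.15. Of 13 regulators of multiciliation, 8 were tested and 0 were lower or higher. The regulators Mcidas, Gmnc, Ccno and Trp73 held at most 26 counts in any sample. Among 10 genes of cytoplasmic dynein, the motor of axonal and ciliary transport, 3 light chains, Dynll1, Dynlt1b and Dynlrb1, were higher at an unadjusted p of 0.05, against 4.18% of all genes. Without cdKO replicate 5 the number was 1, Dynll1, against 0.6% of all genes, and the heavy chain Dync1h1 was lower (log2 fold change -0.53), against 1.76% of all genes. Their log2 fold changes of 0.99, 1.27 and 1.33 (edgeR adjusted p = 0.939 for each) became 0.48, 0.48 and 0.17 without cdKO replicate 5, which held 2308, 289 and 2039 CPM against at most 900, 89.9 and 342 CPM in the other samples.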

How the data were processed

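The authors deposited, for each sample, raw read counts per exon bin. The submitters' processing notes name Trimmomatic 0.36, STAR 2.5.2b and Subread 1.5.2. A read entered the count of each bin it touched, and strand was not used. Of 49644 gene identifiers, 49384 were found in GENCODE M21 (GRCm38). Bins were given to genes by position and summed, and 3996 bins (1.19% of counts) that could not be given to 1 gene were left out. The test was edgeR 4.0.16's quasi-likelihood test in R 4.3.3, with TMM scaling, filterByExpr at a minimum of 10 counts and Benjamini-Hochberg adjustment over all genes. DESeq2 1.42.0, other scalings, filters, bin sets, a replicate block and each sample left out were alternatives. The genes and lists were chosen with earlier results of these data known. Values are given in full for Ppp1r32, Wdr63, Wdr78, Saxo2, the transcription factors, the 5 other genes with the highest CPM per kb, and any further gene past an unadjusted p of 0.05 or with separate groups, and for listed genes outside the 36 past that p.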

Additional observations from a re-analysis of the deposited data

Results flagged for a closer look

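Within each group, the highest or lowest sample was compared with the spread of its 5 samples by Dixon's test, over 59 groups of the tested genes. It marked 8 (13.6%), where chance marks about 1 in 20. In cdKO replicate 5, Saxo2 (7.99 CPM, next 1.40 CPM), Spag6 (5.55 CPM, next 1.72 CPM) and Dnaic1 (4.31 CPM, next 2.12 CPM) were far above, and Rsph4a (0 CPM, next 0.152 CPM) far below, the other cdKO samples. In controls, Ccdc40 was far lower in replicate 5 (3.87 CPM, next 19.5 CPM), Ccdc103 far higher in replicate 5 (1.73 CPM, next 0.844 CPM) and Wdr63 far higher in replicate 4 (0.420 CPM, next 0.221 CPM). The 2 counts of Wdr63 in cdKO replicate 4 (0.0238 CPM) were also marked, as any count would be with the other 4 samples at 0.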

How the results depend on the processing

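The median log2 fold change of the genes listed for function ranged from -0.10 to 0.14 over 18 alternatives, groups separated for 0 of them in each, and Ppp1r32 stayed at 0% and Wdr63 at 0% to 2.63% of control. Over all genes, 1 was called with library size only, 1 without a filter and 19 by DESeq2, and 0 to 4 with a sample left out (4 without control replicate 5, 1 without cdKO replicate 5). Leaving out samples gave 0 to 1 listed genes lower and 0 to 1 higher, and DESeq2 1 higher. Other motile cilium genes lower numbered 0 with 10 counts in every sample, with the single highest bin and with the replicate block, and 0 to 1 with samples left out; genes higher numbered 0 with library size only or the block, 2 without a filter, 3 by DESeq2 and 0 to 4 with samples left out. Primary cilium genes lower numbered 1 with library size only, no filter or DESeq2, and 0 to 2 with samples left out, and genes higher 0 to 1. Of multiciliation regulators, 1 was lower without a filter. Of cytoplasmic dynein genes, 1 was lower with library size only and 0 to 1 with samples left out, and 1 was higher with the block and 0 to 3 with samples left out. Saxo2 ranged from 0.61 (without cdKO replicate 5) to 2.15.

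Small differences changed sign: Rsph1 was at -0.073 with library size only, -0.099 with the replicate block, -0.023 on its highest bin and -0.24 to 0.27 with samples left out, Ccdc40 at 0.011 with the block and -0.37 to 0.071 with samples left out, Dnaic2 from -0.34 to 0.15 and Tekt1 from -0.029 to 0.37. The causes were not tested. Same-numbered samples deviated together with a correlation of -0.32 to 0.43 (mean 0.15, other pairs -0.016). The labels do not state that the numbers pair samples, so the main fit has no pairing. The block called 0 genes, as without it. Depth limits the 6 genes that failed the count filter.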
